A study of Mus musculus with 43 samples.

Results

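The genes studied here encode the subunits of Polycomb repressive complex 2 (PRC2), in E14 mouse embryonic stem (ES) cells with and without the subunit MTF2. They were taken by symbol from the authors' deposited gene table: Ezh2, Suz12 and Eed for the core, Mtf2, Phf1, Phf19, Epop and Lcor for the partners of the PRC2.1 form, and Jarid2 and Aebp2 for those of the PRC2.2 form. These are 10 of 22462 genes in the table, and each matched 1 row. All 10 were among the 11362 genes that the authors' tool tested.

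The RNA-seq groups were control E14 cells, with 3 libraries, and MTF2 KO cells of the same line, with 3 libraries. The submitters describe the libraries of a group as biological replicates. Both were grown with serum and LIF on gelatin, and the labels call the line ES-E14TG2a. The sources used here do not say how the knockout was made, whether it is 1 clone, or how the control cells were treated. The series also holds 36 ChIP-seq samples and 1 input sample, including cells in which wild-type or K339A MTF2 was put back, which were not analysed here. The table gives 1 pooled FPKM value (fragments scaled to transcript length and library size) per gene and group. The spread between libraries and the depth of each are therefore unknown, and a level is printed without an SD. RNA came from bulk cultures, in which fewer cells of a type and less RNA per cell cannot be told apart.

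PRC2 places methyl groups on lysine 27 of histone H3, a mark of silenced developmental genes. EZH2 carries the catalytic site, SUZ12 is the scaffold on which the complex is built, and EED binds the methylated histone and stimulates the enzyme. Accessory proteins bind SUZ12 in mutually exclusive sets. PRC2.1 contains a Polycomb-like protein (MTF2, PHF1 or PHF19), with EPOP or a PALI protein, and PRC2.2 contains JARID2 and AEBP2. The Polycomb-like proteins bind DNA rich in unmethylated CpG, and MTF2 is known as a recruiter of PRC2 to CpG islands in ES cells.

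Markers of ES cells were present in both groups, and those of primitive endoderm were higher in the knockout. Of 6 ES cell markers, 0 were called higher or lower (Cuffdiff, 1 with an unadjusted p under 0.05), and their FPKM ranged from 105 to 1312 in the control group and 90.03 to 1212 in the knockout group. A call here is the authors' q at or under 0.05. Of 9 primitive endoderm markers, all tested, 7 were called higher and 0 lower (Cuffdiff, 0 lower with an unadjusted p under 0.05). The endoderm markers added up to 36.7 FPKM in control and 504 FPKM in the knockout, with single genes at 0.367 to 23.02 and at 9.92 to 185 FPKM. Of 6 fibroblast markers 1 was tested and 0 were called (Cuffdiff, 1 with an unadjusted p under 0.05), and the sums were 5.34 and 12.5 FPKM, with Col3a1 and Dcn listed at 0 in both groups. The part of these endoderm transcripts in the values of the PRC2 genes was not tested. Summed over the table, FPKM differed by -0.15 (log2, knockout over control), while the median log2 ratio of the tested genes was -0.0035.

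Transcripts of 3 subunit genes fell in the knockout cells: Phf19 and Mtf2, both Polycomb-like, and Aebp2 of PRC2.2. By complex, 2 of 5 PRC2.1 partners, 1 of 2 PRC2.2 partners and 0 of 3 core genes were called lower. Mtf2, the gene targeted in the knockout, is included in these counts and in those below. The calls in genes that were not targeted were Phf19 and Aebp2. None of the 10 was called higher (Cuffdiff, 0 higher with an unadjusted p under 0.05). Among all tested genes, 6.03% were called lower and 6.9% higher. On the unadjusted p, 5 members were under 0.05 and lower, the further ones being Epop and Suz12. 9 of the 10 had a lower pooled level in knockout cells, Phf1 being the exception, where 50.2% of all tested genes did. Scaled to equal summed FPKM, the ratio of Jarid2 also lay above 0, at 0.0125.

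**Figure D1:**
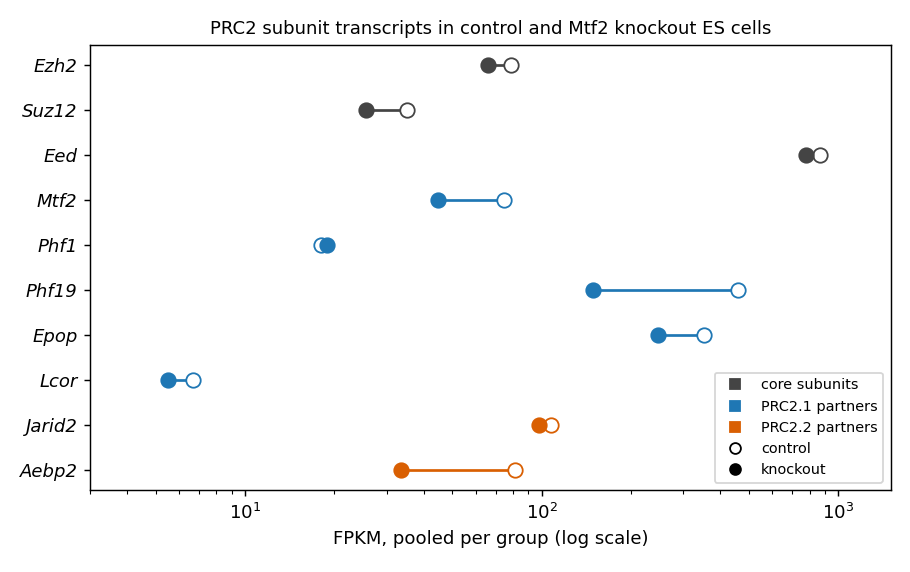
Pooled FPKM (log axis) of the 10 genes in control (open circles) and knockout cells (filled circles), coloured by complex, with no error since each point is 1 pooled value. The longest lines belong to Phf19 (457 to 149 FPKM) and Aebp2 (81.3 to 33.6 FPKM), and the points of Phf1 nearly coincide (18.1 and 18.9 FPKM).

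The error of a fold change had to be taken from the authors' test, since no library values were at hand. Dividing the deposited log2 fold change by the deposited test statistic gives a standard error (SE), if that statistic is the log ratio over its error. Such SEs ranged over the members from 0.37 (Jarid2) to 0.72 (Phf19), against a median of 0.60 over the tested genes. The deposited p-values imply smaller errors, from 0.22 to 0.48, and the calls rest on those p-values. Intervals below are from the test statistic unless the deposited p is named, and those from the p are added where they lead to a different reading.

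Mtf2, the targeted gene (ENSMUSG00000029267, chromosome 5, 108065742 to 108132620, mm10), had a pooled level of 74.3 FPKM with MTF2 present and 44.7 FPKM in the knockout. The knockout level was thus 60.2% of control, and transcripts of the gene remained. Its log2 fold change in the authors' deposited table was -0.73 with q = 0.0496, just inside the threshold. The 95% interval from the test statistic ran from -1.61 to 0.15 and included 0, while that from the deposited p ran from -1.26 to -0.21 and did not (Cuffdiff), and the q was 0.755 when p was computed from that statistic. The table does not say which part of the transcript was counted, so the level does not test the loss of the protein. The locus entry of Mtf2 is merged with that of Tmed5, a cargo transport gene whose RefSeq end it shares, and Tmed5 went the other way, with 10.7 and 17.6 FPKM, without being called (q = 0.758 in the authors' deposited table).

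Phf19 (ENSMUSG00000026873, chromosome 2, 34893757 to 34913976) encodes a Polycomb-like protein that, like MTF2, reads methylated H3K36 through its Tudor domain. It had the largest decrease of the 10 genes, from 457 FPKM in control cells to 149 FPKM in the knockout. The log2 fold change was -1.62 (q = 0.0107) in the authors' deposited table, with a 95% interval of -3.02 to -0.21 from the test statistic. This interval, the widest among the members, spans 12.3% to 86.2% of the control level. Computed from the test statistic, the q was 0.4498. Of all tested genes, 1.94% had a lower log2 ratio.

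Phf1, the remaining Polycomb-like gene, measured 18.1 FPKM in control cells and 18.9 FPKM in the knockout and was not called (log2 fold change 0.07, q = 0.904, in the authors' deposited table). Its 95% interval was -0.86 to 1.00 from the test statistic and -0.46 to 0.59 from the deposited p (Cuffdiff). The fold changes of Phf19 and Phf1 differed by -1.69, with a 95% interval of -3.37 to -0.0031 that narrowly left out 0. Phf19 and Mtf2 differed by -0.88, with an interval of -2.54 to 0.77 that included it.

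FPKM is scaled to length, and on that basis levels of the Polycomb-like genes are set against each other here. How well each row covers its gene's transcripts was not tested, and the Mtf2 entry is merged with that of Tmed5. In control cells Phf19 made up 83.2% of their summed 550 FPKM, Mtf2 13.5% and Phf1 3.28%. In knockout cells the sum was 213 FPKM, of which Phf19 made up 70.1%, Mtf2 21.0% and Phf1 8.90%. Of the 337 FPKM by which the sum was lower, 308 FPKM (91.5%) came from Phf19 and 29.6 FPKM (8.79%) from Mtf2. Phf19 thus had the highest pooled FPKM of the Polycomb-like genes in both groups, at 6.15 times that of Mtf2 in control and 3.34 times in knockout cells. These are transcript levels and give no protein amounts.

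The other PRC2.1 partners were not called. Epop encodes an ES cell protein that joins PRC2 to Elongin BC, and its level was 353 FPKM in control cells and 248 FPKM in the knockout, or 70.1% of control. Its log2 fold change of -0.51 had a q of 0.103 and an unadjusted p of 0.019 in the authors' deposited table (Cuffdiff), and a 95% interval of -1.26 to 0.23. From the deposited p, the interval was -0.94 to -0.08 and left out 0 (Cuffdiff). Lcor, whose locus encodes the PALI1 subunit as well as the nuclear receptor corepressor LCOR, was the lowest of the 10 genes, at 6.67 and 5.50 FPKM (log2 fold change -0.28, q = 0.604, in the authors' deposited table).

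The Lcor row covers only part of the gene. RefSeq on GRCm38.p6 places Lcor at chromosome 19, 41482682 to 41596161, while the row ends at 41562246. Gm340, which RefSeq gives as a synonym of Lcor, has a row of its own at 41582370 to 41586536, inside the RefSeq gene. It was singled out after its values were seen. Gm340 measured 14.2 FPKM in control cells and 8.69 FPKM in the knockout, above the Lcor row in both groups. It was not called (log2 fold change -0.71, q = 0.0811, unadjusted p = 0.013, in the authors' deposited table, Cuffdiff). The 95% interval of Lcor's fold change, -1.33 to 0.77, holds the fold change of Gm340.

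Of the PRC2.2 partners, Aebp2 fell and Jarid2 was not called. AEBP2 is a zinc finger protein that stabilises PRC2 and stimulates its activity. Aebp2 (ENSMUSG00000030232, chromosome 6, 140622663 to 140678472) went from 81.3 FPKM in control cells to 33.6 FPKM in the knockout, or 41.4% of control. Its log2 fold change was -1.27 (q = 0.0012) in the authors' deposited table, with a 95% interval of -2.09 to -0.46. The deposited p of 5e-05 (Cuffdiff) is the smallest in the table, so this q is the lowest a gene could have. Computed from the test statistic, the q was 0.117. Of all tested genes, 3.57% had a lower log2 ratio.

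Jarid2 encodes a Jumonji family protein that has lost demethylase activity and helps to bring PRC2.2 to chromatin. It measured 108 FPKM in control cells and 98.1 FPKM in the knockout, or 91.0% of control (log2 fold change -0.14, q = 0.738, in the authors' deposited table). Its 95% interval ran from -0.87 to 0.59. The fold changes of Aebp2 and Jarid2 differed by -1.14, with an interval of -2.23 to -0.04. Aebp2 made up 43.0% of their summed 189 FPKM in control and 25.5% of 132 FPKM in knockout cells, so the ratio of Jarid2 to Aebp2 transcripts went from 1.33 to 2.92.

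None of the core genes was called (Cuffdiff, 1 of 3, Suz12, with an unadjusted p under 0.05). Ezh2 was at 78.6 and 65.7 FPKM (83.5% of control), Suz12 at 35.1 and 25.5 FPKM (72.6%) and Eed at 868 and 777 FPKM (89.5%). Their log2 fold changes of -0.26, -0.46 and -0.16 had q values of 0.486, 0.168 and 0.728 in the authors' deposited table. The 95% intervals were -0.9996 to 0.48 for Ezh2, -1.23 to 0.30 for Suz12 and -0.99 to 0.67 for Eed. Their lower limits were 50.01%, 42.8% and 50.3% of control. From the deposited p the lower limits were 62.0%, 53.5% and 64.4% of control (Cuffdiff), and the interval of Suz12, -0.90 to -0.02, left out 0 while those of Ezh2 and Eed included it. The level of Eed was 24.8 times that of Suz12 in control and 30.5 times in knockout cells. Ezh2 was at 2.24 and 2.58 times the level of Suz12. As for the Polycomb-like genes, these ratios depend on how each row covers its gene's transcripts.

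**Figure D2:**
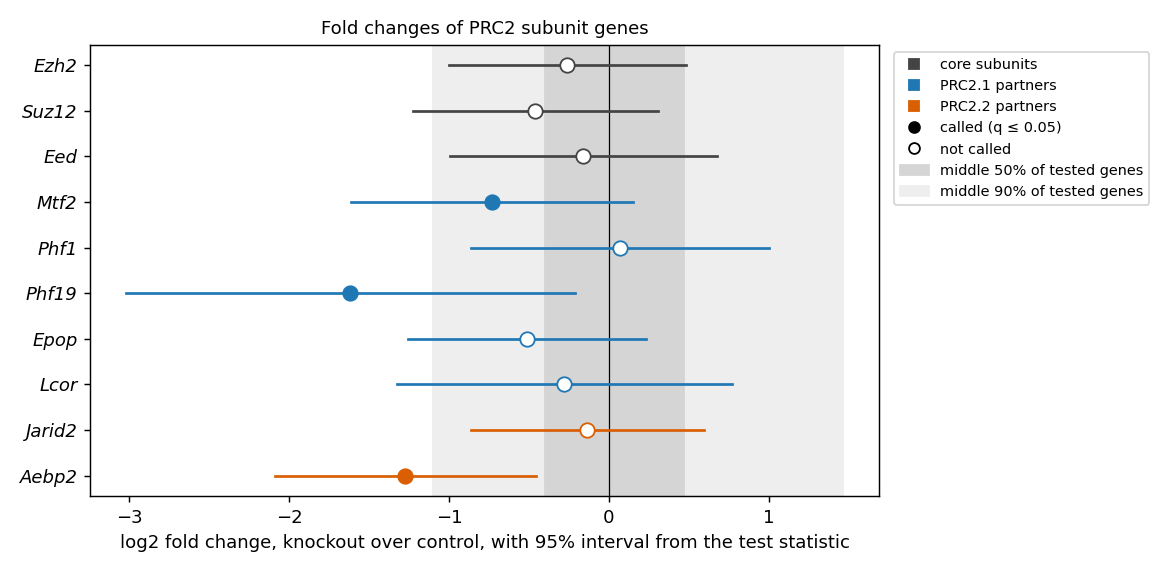
Deposited log2 fold changes (knockout over control) of the 10 genes with 95% intervals from the test statistic. Filled points were called at q of 0.05, and grey bands hold the middle 50% and 90% of log2 ratios (with 0.5 FPKM added) of the 11362 tested genes. Phf19 (-1.62) and Aebp2 (-1.27) lie left of the bands, while the interval of Mtf2 (-1.61 to 0.15) crosses 0. Intervals from the deposited p, not drawn, are narrower, and that of Mtf2 (-1.26 to -0.21) leaves out 0.

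Set side by side, the median log2 ratio (with 0.5 FPKM added to both levels) was -0.26 over the 3 core genes, -0.51 over the 5 PRC2.1 partners and -0.70 over the 2 PRC2.2 partners. Scaled to equal summed FPKM, the medians were -0.11, -0.36 and -0.55, and the ratio of Eed was -0.01. The partners of each complex were spread more widely than the core genes. The PRC2.1 partners ranged from -1.61 (Phf19) to 0.07 (Phf1), the PRC2.2 partners from -1.26 (Aebp2) to -0.14 (Jarid2) and the core genes from -0.45 (Suz12) to -0.16 (Eed). The genes called lower were thus spread over both complexes, and each also held a partner near 0, Phf1 or Jarid2. In 7 pairs of members compared, the difference in fold change was over 1.96 SE for 2, Phf19 against Phf1 and Aebp2 against Jarid2, with SEs from the test statistic. With SEs from the deposited p it was so for 5, the further pairs being Phf19 against Epop (-2.10 SE), Aebp2 against Suz12 (-2.10 SE) and Phf19 against Suz12 (-2.18 SE). From the test statistic, the intervals of these pairs included 0. Aebp2 and Phf19 differed from Suz12 by -0.81 (95% interval -1.93 to 0.31) and -1.16 (-2.75 to 0.44), Phf19 from Epop by -1.10 (-2.69 to 0.48), and Aebp2 from Phf19 by 0.34 (-1.28 to 1.96). These intervals are approximate, since they ignore any covariance between genes, and are not adjusted for the number of pairs.

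Summed over partners, PRC2.1 transcripts amounted to 910 FPKM in control cells and 466 FPKM in the knockout, and PRC2.2 transcripts to 189 and 132 FPKM. The ratio of the sums was 4.81 in control and 3.54 in knockout cells. In control cells Phf19 made up 50.3% and Epop 38.8% of the PRC2.1 sum. In knockout cells their places were exchanged, at 32.0% and 53.1%.

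**Figure D3:**
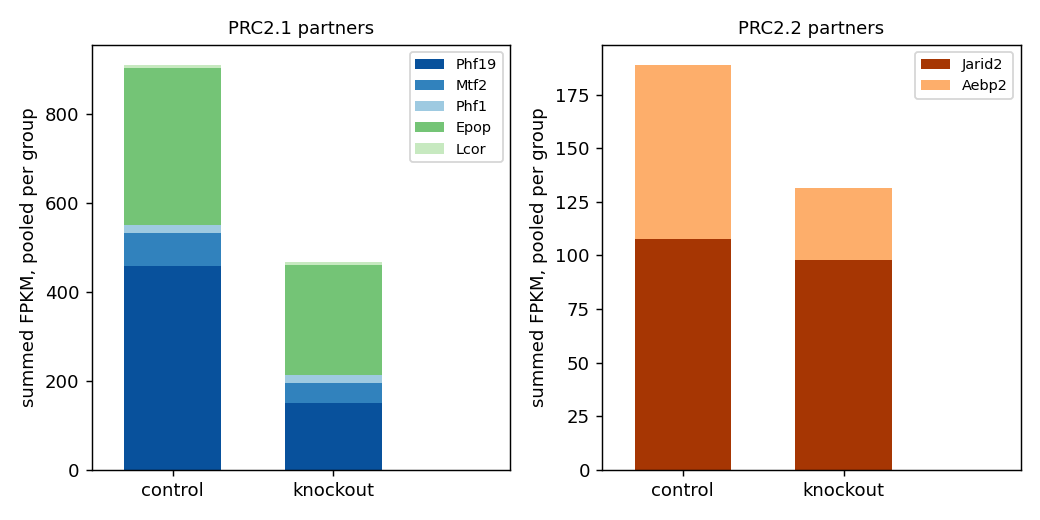
Stacked pooled FPKM of the PRC2.1 partners (left) and PRC2.2 partners (right, on its own scale) in control and knockout cells. The PRC2.1 stack is 910 FPKM high in control cells and 466 FPKM in the knockout, with Phf19 (dark blue) the part that differs most, and the PRC2.2 stack is 189 and 132 FPKM high.

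In descending order, the control levels ran Eed, Phf19, Epop, Jarid2, Aebp2, Ezh2, Mtf2, Suz12, Phf1 and Lcor. Aebp2, Ezh2 and Mtf2 were neighbours within 1.03 and 1.06 times of each other. In knockout cells Epop stood above Phf19, and Ezh2 and Mtf2 above Aebp2, with the other places unchanged. With no spread between libraries, which neighbours in this order differ could not be tested. Among the tested genes, Eed lay at percentile 99.4 of control levels, Phf19 at 98.5, Epop at 97.9 and Jarid2 at 91.6. Aebp2, Ezh2 and Mtf2 lay at 88.5, 88.2 and 87.4, Suz12 at 75.8 and Phf1 at 61.5. Lcor, at 37.1, was the lowest.

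To show whether nearby genes differed likewise, each member was set beside its 10 nearest tested genes on either side. For Phf19 the median log2 ratio of the 20 neighbours was -0.06, and 0 of them had a ratio below its own. For Mtf2 the median was 0.15 with 1 neighbour below it. For Aebp2 it was -0.21, with 2 below it and 2 of the 20 called lower. These 3 genes thus differed from their surroundings by -1.56, -0.88 and -1.05. The neighbours of Epop had the lowest median, -0.32, with 3 called lower, and Epop differed from them by -0.19. Jarid2 and Phf1 lay slightly above their neighbours, by 0.10 and 0.11.

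**Figure D4:**
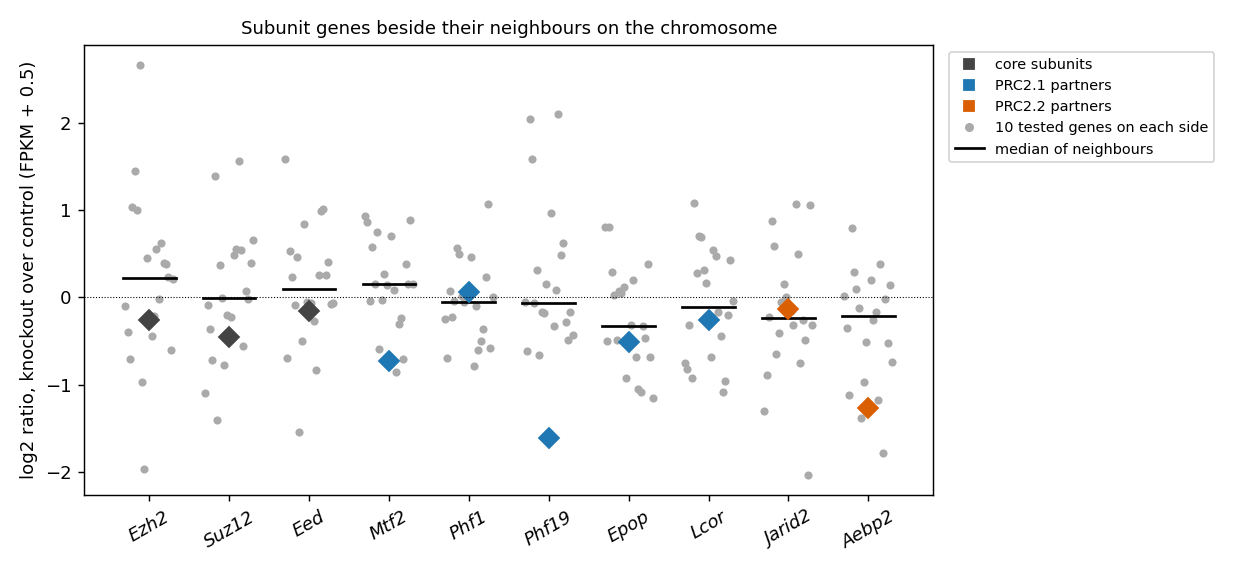
Log2 ratio (knockout over control, 0.5 FPKM added) of each member (diamond) beside its 10 tested neighbours on each side in chromosome order (grey points, horizontal offset by order) and their median (black line). The diamonds of Mtf2, Phf19 and Aebp2 differ from the medians of their neighbours by -0.88, -1.56 and -1.05.

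Other genes of the pathway were read from lists of symbols. The second methyltransferase Ezh1 (7.44 and 9.05 FPKM in control and knockout cells) and the histone-binding subunits Rbbp4 (33.2 and 37.5 FPKM) and Rbbp7 (75.9 and 75.6 FPKM) were not called, with 0 of 3 under an unadjusted p of 0.05 (Cuffdiff). The partners of EPOP, Elob, Eloc and the deubiquitinase Usp7, gave 0 calls of 3 tested and 0 with an unadjusted p under 0.05 (Cuffdiff). The H3K27 demethylases gave 0 calls of 2 tested, with 1 lower at an unadjusted p under 0.05 (Cuffdiff). Among 9 tested enzymes that add or remove methyl groups at H3K36, the mark read by Polycomb-like proteins, 1 was called higher, where 6.9% of all tested genes were, and 0 lower (Cuffdiff, 2 higher and 0 lower with an unadjusted p under 0.05). The called gene was Nsd3, an H3K36 methyltransferase, at 6.95 FPKM in control cells and 13.4 FPKM in the knockout (log2 fold change 0.94, q = 0.0225, in the authors' deposited table). Of 19 tested subunits of Polycomb repressive complex 1, which binds the mark that PRC2 makes, 0 were called, with 1 lower and 3 higher at an unadjusted p under 0.05 (Cuffdiff). Their median log2 ratio was 0.04. Of the further PRC2 partners listed, Lcorl was the 1 found in the table and was not tested.

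The genes nearest to Mtf2 in both levels were Wbscr22 (73.8 and 45.9 FPKM), Dgcr6 (75.5 and 43.4 FPKM) and Snrpn (77.8 and 44.9 FPKM), by distance in log2 FPKM over the 2 pooled groups. With nearly equal levels and ratios, they had q values of 0.0531, 0.0646 and 0.0724 in the authors' deposited table and were not called, so Mtf2 was the only one of these 4 genes inside the threshold.

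The study concerns Polycomb-like proteins and CpG islands, so the CpG content of the subunit genes' own promoters was read from RefSeq (GRCm38.p6). The window held 250 bases before and 50 after a start site, and 9 of the 10 genes had an entry, Epop being the exception. At the start nearest the row's edge, 8 of 9 windows had at least 50% GC and an observed over expected CpG ratio of 0.6, against 33.5% of all 32851 promoters. That share counts every start site listed, inner ones included, whether or not the gene was tested. The members give 1 window each, and no share over tested genes was computed. Counts of CG, which reads the same on both strands, were 41 in Suz12, 31 in Ezh2 and 17 in Eed. They were 49 in Lcor, 38 in Phf19, 30 in Mtf2 and 24 in Phf1 and Jarid2, where the median promoter had 7, and 94.6% of promoters had at least 1. Aebp2 differed, with 4 at the start nearest its row's edge and a ratio of 0.23. That start lies 209 bases inside the RefSeq gene, and those of Phf19 and Ezh2 lie 377 and 240 bases inside theirs. A window around the first base of RefSeq Aebp2 was not read. Of the inner starts of Aebp2, the first had 21 and 0.77 and the second 4 and 0.22. The inner start of Mtf2 had 2 and 0.13, and that of Jarid2 had 23 and 0.83. Among the called genes, the windows of Mtf2 and Phf19 at the start nearest the row's edge passed the criterion and that of Aebp2 did not. Of the inner windows, 1 of 2 of Aebp2 and 0 of 1 of Mtf2 passed it. No binding or methylation data were used here for these windows.

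To show this content, the stretches before the first base of the RefSeq gene are printed for Mtf2, its uncalled paralogue Phf1 and the scaffold gene Suz12, 5′ to 3′ on the plus strand with each CG in capitals. That of Mtf2 is chr5:108065424-108065659 with 23 CG, that of Phf1 is chr17:26932877-26933126 with 23 and that of Suz12 is chr11:79992856-79993105 with 37.
Mtf2: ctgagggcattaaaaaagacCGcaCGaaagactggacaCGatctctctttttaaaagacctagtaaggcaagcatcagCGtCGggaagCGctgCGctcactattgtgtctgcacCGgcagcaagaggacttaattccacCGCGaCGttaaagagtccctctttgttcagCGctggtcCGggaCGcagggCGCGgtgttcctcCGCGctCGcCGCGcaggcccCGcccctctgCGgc
Phf1: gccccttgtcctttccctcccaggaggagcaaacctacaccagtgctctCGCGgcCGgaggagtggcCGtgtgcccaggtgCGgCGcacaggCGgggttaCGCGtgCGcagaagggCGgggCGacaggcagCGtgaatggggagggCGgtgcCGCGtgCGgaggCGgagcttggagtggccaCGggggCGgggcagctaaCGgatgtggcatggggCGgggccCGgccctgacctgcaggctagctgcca
Suz12: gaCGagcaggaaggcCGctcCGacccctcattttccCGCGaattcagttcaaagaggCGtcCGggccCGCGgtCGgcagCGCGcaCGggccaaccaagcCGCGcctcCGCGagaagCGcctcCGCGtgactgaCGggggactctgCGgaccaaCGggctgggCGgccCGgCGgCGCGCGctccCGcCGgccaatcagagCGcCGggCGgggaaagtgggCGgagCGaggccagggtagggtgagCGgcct

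**Figure D5:**
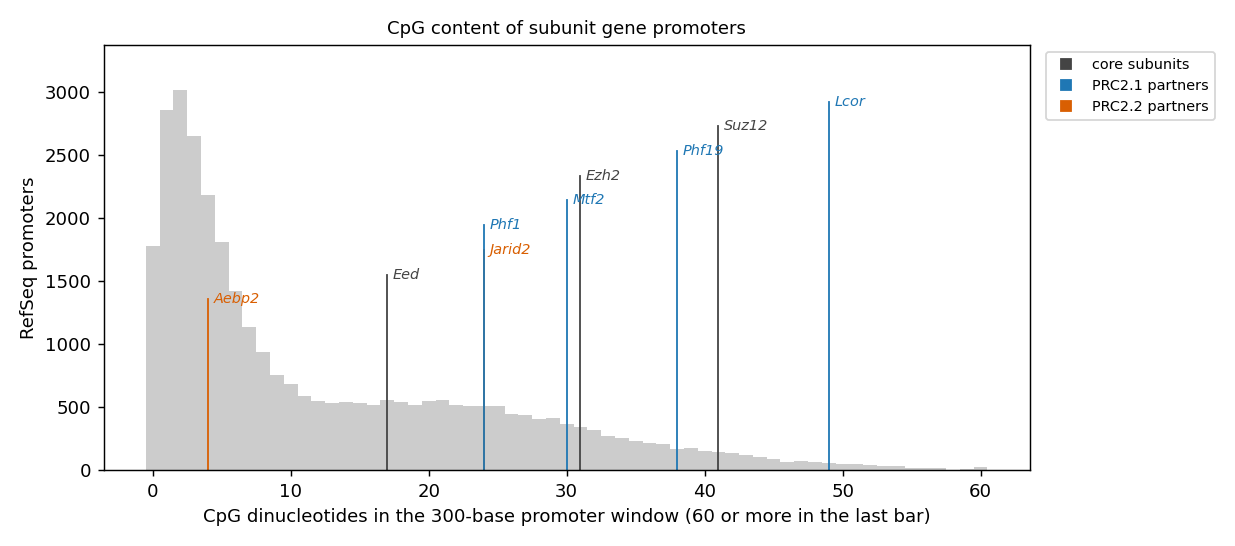
CpG dinucleotides in the 300-base promoter windows of RefSeq (grey bars, number of promoters) with the window of each member at the start nearest its row's edge (coloured lines, whose heights only space the names). Aebp2 lies at 4, near the median of 7, and Eed at 17, Mtf2 at 30 and Lcor at 49 lie to its right.

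The calls depended on the threshold and on the source of the error. At a q of 0.01, which 2.96% of tested genes passed as lower, 1 member was called, Aebp2. Asking for a change of at least 2-fold as well as a q of 0.05, which 2.92% passed as lower, left Phf19 and Aebp2. With the adjustment redone over 10452 genes at 1 FPKM or more in both groups, 6.18% were lower and the same 3 members were called. With a normal p from the test statistic, 0.258% of 11236 genes were lower and 0 members were called (Cuffdiff statistic, Benjamini-Hochberg adjustment).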

How the data were processed

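Gene expression was read from 1 table of 22462 genes for 3 control and 3 MTF2 KO libraries. Per the labels, RNA was purified with Trizol and oligo-dT beads. The submitters' processing notes name TopHat2 2.1.0, Cuffdiff 2.2.1.3, Bowtie 1.0 and deepTools, and list mm9 and mm10 without saying which files used which build. The FPKM values are the authors' pooled values per group, per the file headers. The authors' log2 fold changes compare knockout with control without a pseudocount, and recomputing them from the FPKM values gave differences of at most 1.29e-05. Adjusting the deposited p-value by Benjamini-Hochberg over the 11362 tested genes returned the deposited q-value, with differences of at most 5.2e-07. The authors' test statistic was treated as a score. A normal z of the deposited p was 1.73 times that score at the median. Genes with status NOTEST (11098) or FAIL (2) were left out of tests. Starts were moved from 0-based to 1-based. All 10 members begin within 1 kb of their RefSeq gene on GRCm38.p6, the reference of mm10.

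Calls are the authors' (q at or under 0.05). Computed here were log2 ratios with 0.5 FPKM added, SEs (log2 fold change over test statistic, or over the normal z of p), 95% intervals of 1.96 SE, shares, neighbours and promoter composition, with Python 3.11.15, pandas 2.3.3 and scipy 1.17.1. The adjustment and SE code was tested on simulated data. Named genes were the 10 members, called genes of the wider lists with Ezh1, Rbbp4 and Rbbp7, and the 3 tested genes nearest to Mtf2; Gm340, Tmed5, Elob, Eloc, Usp7 and Lcorl were named besides. Members and lists were chosen with earlier results of these data known. A planned comparison of the members' proteins was not made, as no protein sequences were used here. Alternatives covered thresholds, pseudocounts, scaling, the source of the error and the CpG criterion.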

Additional observations from a re-analysis of the deposited data

How the results depend on the processing

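No paired analysis was possible because the table holds 1 pooled value per group, and for the same reason no replicate could be left out. Members called lower numbered 3. They numbered 1 at a q of 0.01 and 0 with a normal p from the test statistic, where Phf19 had an adjusted p of 0.4498 (Cuffdiff statistic). PRC2.1 partners called lower numbered 2, against 0 at a q of 0.01, 1 with a 2-fold minimum and 0 with that normal p. PRC2.2 partners called lower went from 1 to 0 with the normal p. The q of 0.01 and the 2-fold minimum ask for stronger evidence or a larger change. The normal p keeps the q of 0.05 but rests on the larger error from the test statistic. With it, 29 of all tested genes were called lower, against 685 with the deposited q. Of the 10 log2 ratios, 9 kept their direction under 6 pseudocounts and scalings, and that of Jarid2 reversed to 0.0125 when scaled to equal summed FPKM. The 3 medians moved by less than the smallest SE in their group, also, in alternatives chosen after seeing the data, with Gm340 in place of Lcor or without Mtf2 for PRC2.1. With errors from the deposited p, Phf19 differed from Epop by -2.10 SE, Aebp2 from Suz12 by -2.10 SE and Phf19 from Suz12 by -2.18 SE, each past 1.96. The error of Aebp2 is then an upper bound, since its p is the smallest in the table. Under a CpG criterion of 0.75 and 55% GC, 6 of 9 promoters passed instead of 8. Depth per library is unknown, so what it limits cannot be given.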
